A study of Mus musculus with 6 samples.

Results

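The genes described here are 9 Toll-like receptors, measured in dendritic cells grown from mouse bone marrow, together with Cd14, the surface co-receptor that hands bacterial products to some of them. They were taken by name from the deposited expression table: Tlr1, Tlr2, Tlr3, Tlr4, Tlr6, Tlr7, Tlr8, Tlr9, Tlr13 and Cd14. All 10 are in the table, each once, among 23398 genes. The series compares 2 groups of bone marrow-derived dendritic cells in DMEM with fetal bovine serum, 3 RNA libraries of cells given Ca(OH)2 nanoparticles and 3 of cells given vehicle, both for 12 hours. A growth factor, and the strain, age and number of mice, are not given in the sources used here. It is not said either whether libraries of a group came from separate cultures, so the p-values measure the spread between these libraries, which may be technical.

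Toll-like receptors are membrane proteins that recognise conserved parts of microbes and signal through the adaptors MyD88 and TRIF. At the cell surface TLR2 pairs with TLR1 or TLR6 to bind bacterial lipoproteins, and TLR4, with its partner MD-2 (gene Ly96) and with CD14, binds lipopolysaccharide. In endosomes the receptors read nucleic acids: TLR3 binds RNA duplexes, TLR7 and TLR8 bind RNA fragments, TLR9 binds DNA with unmethylated CpG, and TLR13, present in mice, binds bacterial ribosomal RNA. In dendritic cells these receptors link the sensing of microbes to cytokine release and maturation.

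Expression is given in FPKM, fragments per kilobase of transcript scaled between libraries, which allows levels of different genes to be set side by side. Means are given with the SD over 3 libraries per group, and log2 changes, always of (FPKM + 1), with limma's standard error (SE). The reads behind the values were recovered from FPKM and gene length and came to 17423182 to 22114491 per library. Nanoparticle library 1 stood apart from libraries 2 and 3 of its group (Cd74, the invariant chain, was at 2270 FPKM in it and at 4790 and 5273 FPKM in them), and values without it are given below. The conventional dendritic cell markers Itgax (442 to 456 FPKM in vehicle) and Cd74 (3902 to 4264 FPKM) were abundant, whereas Flt3 reached at most 0.0793 FPKM in any library. Genes listed as macrophage markers were also present, among them Csf1r at 158 to 159 FPKM in vehicle. The cultures thus held transcripts of both marker lists, and bulk RNA does not tell whether the same cells held them.

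Among the receptor genes, Tlr2 and Tlr1 rose with nanoparticles, and Tlr9 and Tlr13 fell. Sequence upstream of these 4 is shown, and each stretch held a match to a motif named below. Each is the part of the RefSeq promoter window (GRCm38.p6) that lies upstream of both the RefSeq start and the GENCODE M21 gene start, read 5′ to 3′ on the gene's strand. The positions are chr3:83841768-83841858 (minus strand), chr5:64933564-64933808 (minus), chr9:106222348-106222597 (plus) and chrX:106143025-106143203 (plus). Capitals mark matches, on either strand, to the NF-kappaB motif called the kappa-B consensus (in Tlr2), to GAGGAAG, a core bound by the myeloid factor PU.1 (in Tlr1, Tlr9 and Tlr13), and to TGANTCA, the AP-1 motif (in Tlr9).
Tlr2: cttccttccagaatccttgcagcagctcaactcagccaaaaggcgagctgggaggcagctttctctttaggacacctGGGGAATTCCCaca
Tlr1: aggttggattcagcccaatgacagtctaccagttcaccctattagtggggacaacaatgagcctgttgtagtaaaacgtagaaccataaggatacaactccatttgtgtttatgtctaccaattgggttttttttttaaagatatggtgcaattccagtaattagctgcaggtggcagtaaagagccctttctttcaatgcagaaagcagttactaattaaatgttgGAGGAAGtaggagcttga
Tlr9: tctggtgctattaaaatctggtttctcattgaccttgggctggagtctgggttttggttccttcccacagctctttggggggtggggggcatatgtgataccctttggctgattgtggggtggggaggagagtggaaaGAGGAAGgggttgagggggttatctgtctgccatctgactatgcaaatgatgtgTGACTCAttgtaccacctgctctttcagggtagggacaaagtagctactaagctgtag
Tlr13: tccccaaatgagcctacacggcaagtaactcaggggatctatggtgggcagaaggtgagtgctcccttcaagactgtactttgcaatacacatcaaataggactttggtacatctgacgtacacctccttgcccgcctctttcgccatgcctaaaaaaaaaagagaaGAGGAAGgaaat
The capitals in Tlr2 are 2 overlapping kappa-B matches, which begin 14 and 13 bases upstream of the GENCODE start. The PU.1 core lies 18 bases upstream of that start in Tlr1, 12 in Tlr13 and 112 in Tlr9. Such matches describe letters and do not show binding. The same kind of stretch was read for Tlr6, which rose, and Tlr8, which fell. It held no match in either gene and is not shown.

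Windows of 300 bases, 250 before and 50 after a RefSeq start, were found for 7 of the 10 genes, 9 windows in all. Over all 32851 windows of that length, 8.46% held the kappa-B consensus, 13.6% GAGGAAG, 7.81% TGANTCA and 3.44% the core of the interferon-stimulated response element. A further kappa-B match in the Tlr2 window and the only match in the Tlr3 window lie inside the GENCODE gene, downstream of its start. In Tlr6 the only matches were 2 overlapping copies of the response element core, in the window of a RefSeq start that lies 931 bases inside the GENCODE gene. The Tlr8 window held none of the 4 motifs.

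Of the 10 genes, 6 rose with nanoparticles (Cd14, Tlr2, Tlr1, Tlr3, Tlr6 and Tlr7), 3 fell (Tlr8, Tlr9 and Tlr13) and Tlr4 did not pass the test. The test was limma's moderated test on log2(FPKM + 1) over 10682 genes, with a Benjamini-Hochberg adjusted p under 0.05 as the threshold. Among all these genes 33.2% passed, 17.0% higher and 16.2% lower. Groups did not overlap in any of the 9 genes that passed, a pattern seen in 52.1% of all tested genes. How many went each way depended on how libraries were scaled. With libraries scaled to equal sums of FPKM, which moves the median change of all tested genes from -0.00103 to -0.39, 3 of the 10 rose and 3 fell, with 863 genes higher (7.98%) and 4416 lower (40.8%) of 10814 tested, 48.8% in all, in place of 1817 and 1733 of 10682. With 1 library left out, 2141 to 6923 genes passed (3550 with all 6), the fewest without vehicle library 3 and the most without nanoparticle library 1, and 7 to 9 of the 10 did. Changes below are relative to the deposited scale.

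**Figure D1:**
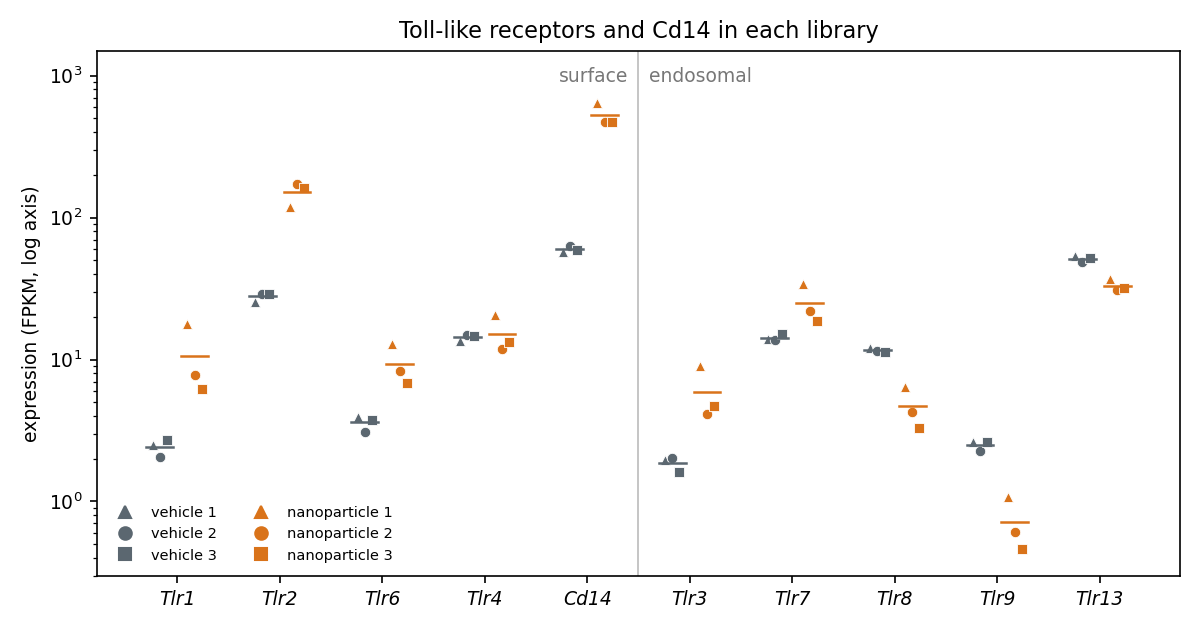
Expression of each gene in FPKM (log axis) in 3 vehicle libraries (grey) and 3 nanoparticle libraries (orange). Triangles, circles and squares are libraries 1, 2 and 3, and bars are group means. Cd14 and Tlr2 moved furthest upwards, Tlr9 fell to between 0.463 and 1.07 FPKM, and the Tlr4 groups overlap.

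Cd14 was the most abundant of the genes in both groups. It held 57.7, 63.4 and 59.0 FPKM in vehicle libraries 1 to 3 and 645, 473 and 475 FPKM in nanoparticle libraries 1 to 3. The lowest treated library was thus far above the highest vehicle library. The mean rose 8.84-fold, from 60.0 ± 3.03 to 531 ± 98.6 FPKM. In limma this was 3.11 on the log2 scale (SE 0.160), with an adjusted p of 9.2e-05. Cd14 (ENSMUSG00000051439) is a gene of chromosome 18 (GRCm38, 36725067 to 36726798, minus strand). In vehicle its level exceeded that of 93.5% of tested genes, and with nanoparticles that of 99.05%. As in any bulk sample, more cells that express a gene and more RNA of it per cell cannot be told apart.

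Tlr2, the shared partner of the lipoprotein-sensing pairs, showed the largest rise among the receptors. It stood at 25.6, 29.1 and 28.9 FPKM in vehicle and at 119, 172 and 163 FPKM with nanoparticles. All treated libraries were above all vehicle libraries, and library 1 was the lowest of the treated ones. The mean rose 5.43-fold, from 27.9 ± 2.00 to 151 ± 28.4 FPKM. The limma estimate was 2.38 on the log2 scale (SE 0.167), and its adjusted p was 2.4e-04. Tlr2 (ENSMUSG00000027995) spans 83836272 to 83841767 of chromosome 3 (minus strand). Its upstream sequence, shown above, was the only one of the 4 printed that held the kappa-B consensus.

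Tlr1 and Tlr6 encode the alternative partners of TLR2 and are neighbours on the minus strand of chromosome 5, 18467 bases apart with no annotated gene between them. Tlr1 (ENSMUSG00000044827, 64924679 to 64933563) held 2.49, 2.07 and 2.71 FPKM in vehicle and 17.7, 7.82 and 6.16 FPKM with nanoparticles. Treated library 1 was more than the other two combined, and even the lowest treated library was above every vehicle library. The log2 change of 1.63 had the widest standard error of the 10 genes, 0.350 (limma adjusted p = 0.0137). The call was lost without vehicle library 1 (1.65, adjusted p = 0.0517) or 2 (1.56, adjusted p = 0.0573). Tlr6 (ENSMUSG00000051498, 64952031 to 64960097) held 3.96, 3.09 and 3.78 FPKM in vehicle and 12.9, 8.37 and 6.78 FPKM with nanoparticles. Treated library 1 was again the highest, and limma gave 1.13 on the log2 scale (SE 0.222, adjusted p = 0.0099). With libraries scaled to equal sums of FPKM the change was 0.73 and did not pass (adjusted p = 0.0664). The sequences of these neighbours are alike in part, and how reads that fit both were counted is not given in the sources used here.

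The rise of Tlr1 and Tlr6 did not match that of Tlr2 library by library. The ratio of Tlr1 to Tlr2 was 0.0974, 0.0709 and 0.0936 in vehicle and 0.149, 0.0454 and 0.0378 with nanoparticles, so the groups overlapped (exact permutation test, two-sided, p = 0.9). For Tlr6 to Tlr2 the ratio was 0.131 ± 0.0245 in vehicle and 0.0661 ± 0.0365 with nanoparticles, and the groups also overlapped (exact permutation p = 0.2, adjusted p = 0.267 over 4 ratios). In each treated library Tlr2 mRNA remained several times that of either partner.

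Tlr4, the lipopolysaccharide receptor, was the one gene of the 10 that did not pass. Vehicle libraries held 13.5, 14.9 and 14.7 FPKM, and nanoparticle libraries 20.6, 11.9 and 13.3 FPKM. Treated library 1 lay above every vehicle library and libraries 2 and 3 lay below every one. The log2 change was 0.04, with a 95% confidence interval of -0.45 to 0.53 (limma adjusted p = 0.888), which spans changes of either sign. Without nanoparticle library 1 it was -0.18 (limma adjusted p = 0.0771), and it was also below 0 under each other scaling. Tlr4 (ENSMUSG00000039005) spans 66827584 to 66930284 of chromosome 4 (plus strand).

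Because Cd14 rose and Tlr4 did not pass, their proportion differed between the groups. There were 4.26, 4.25 and 4.02 FPKM of Cd14 per FPKM of Tlr4 in vehicle and 31.3, 39.9 and 35.7 with nanoparticles. This ratio does not depend on the scaling between libraries, and its groups did not overlap. For Tlr2 to Tlr4 the values were 1.89, 1.95 and 1.97 in vehicle and 5.77, 14.5 and 12.2 with nanoparticles. Both ratios reached p = 0.1 in the exact permutation test, the smallest that 3 libraries against 3 can give (adjusted p = 0.2 over 4 ratios).

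Among the endosomal receptors Tlr3 and Tlr7 rose. Tlr3 (ENSMUSG00000031639, minus strand of chromosome 8, 45395665 to 45411080) held 1.95, 2.02 and 1.60 FPKM in vehicle and 8.99, 4.12 and 4.67 FPKM with nanoparticles. Every treated library was above every vehicle library, and limma gave 1.22 on the log2 scale (SE 0.258, adjusted p = 0.0131). The call was lost without vehicle library 3 (1.15, adjusted p = 0.0571) and with equal sums of FPKM (0.87, adjusted p = 0.0539). Of its exon length 7.32% overlaps the antisense gene Gm45542, and reads of the pair cannot be told apart if strand was not counted. Tlr7 (ENSMUSG00000044583, minus strand of chromosome X, 167304929 to 167330558) held 14.02, 13.8 and 15.02 FPKM in vehicle and 33.9, 22.1 and 18.7 FPKM with nanoparticles. Its log2 change of 0.72 (SE 0.215, limma adjusted p = 0.0445) was the closest to the threshold of the 9 that passed. The call was lost under 9 of 14 other settings, among them scaling to recovered read totals (0.39, adjusted p = 0.202), the replicate block (adjusted p = 0.0652) and leaving out vehicle library 1, 2 or 3 or nanoparticle library 2 (adjusted p = 0.133, 0.136, 0.113 and 0.0868), although its direction held in all of them.

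Tlr8, which lies 40599 bases from Tlr7 on the same strand of chromosome X (ENSMUSG00000040522, 167242696 to 167264329), fell. It held 12.1, 11.5 and 11.3 FPKM in vehicle and 6.46, 4.28 and 3.27 FPKM with nanoparticles, with no overlap between the groups. The mean was 2.49-fold lower, and the limma estimate was -1.19 on the log2 scale (SE 0.205, adjusted p = 0.0058). The ratio of Tlr7 to Tlr8, looked at after their values were seen, was 1.16, 1.199 and 1.33 in vehicle and 5.25, 5.17 and 5.71 with nanoparticles. Its groups did not overlap (exact permutation p = 0.1, the smallest possible), and treated library 1 did not stand apart in it. The 2 neighbours thus went in opposite directions in each treated library.

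Tlr9, the receptor for CpG DNA, was the lowest of the 10 genes with nanoparticles. Vehicle libraries held 2.64, 2.28 and 2.63 FPKM, from 183, 157 and 191 reads. Treated libraries held 1.07, 0.608 and 0.463 FPKM, from 61, 35 and 31 reads. The mean was 3.52-fold lower on the FPKM scale. The limma estimate was -1.05 (SE 0.152, adjusted p = 0.0031), smaller because adding 1 before taking logs compresses the changes of weakly expressed genes. The vehicle libraries alone took Tlr9 past the filter on low values, and of the treated libraries only library 1 reached 1 FPKM. Its gene (ENSMUSG00000045322) spans 106222598 to 106226883 of chromosome 9 (plus strand).

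Tlr13, the receptor for bacterial ribosomal RNA, was the most abundant receptor in vehicle, at 53.4, 48.8 and 51.7 FPKM. With nanoparticles it held 37.1, 30.7 and 31.9 FPKM, below every vehicle library. Its mean was 1.54-fold lower. The limma estimate of -0.61 on the log2 scale (adjusted p = 0.0079) had the smallest standard error of the 10, 0.114. Tlr13 (ENSMUSG00000033777) spans 106143204 to 106160493 of chromosome X (plus strand). The listed receptors that fell, Tlr8, Tlr9 and Tlr13, are all endosomal, and no listed surface receptor passed in that direction. Toll-like receptors outside the list were too low to be tested.

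**Figure D2:**
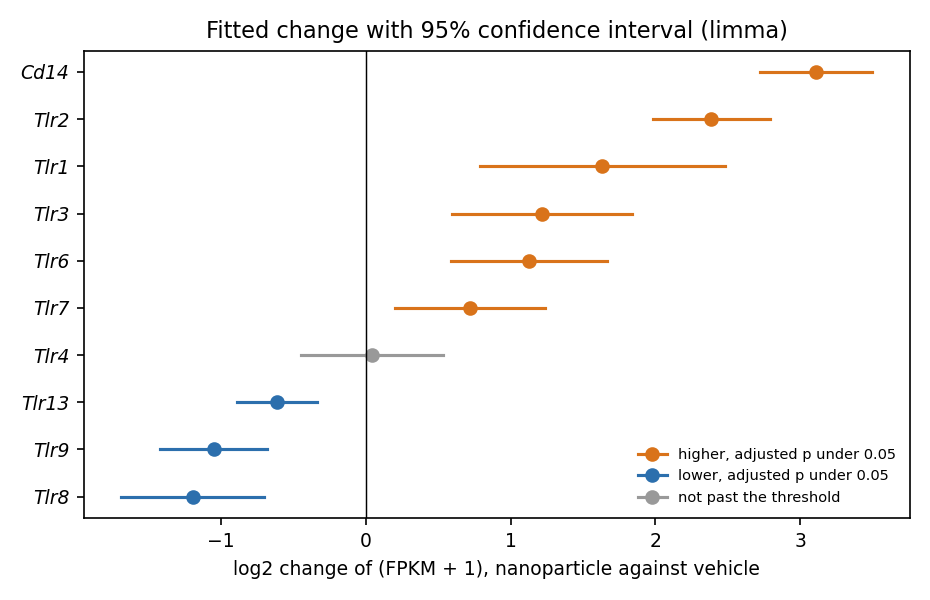
Log2 change of (FPKM + 1), nanoparticle against vehicle, for each gene, with points for limma's estimate and lines for the 95% confidence interval. The values run from 3.11 for Cd14 to -1.19 for Tlr8, and the interval of Tlr4 spans 0.

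The order of the levels changed as a result. In vehicle the order of mean FPKM was Cd14 (60.0), Tlr13 (51.3), Tlr2 (27.9), Tlr4 (14.4), Tlr7 (14.3), Tlr8 (11.6), Tlr6 (3.61), Tlr9 (2.52), Tlr1 (2.42) and Tlr3 (1.85). Of the neighbours in that order, Tlr4 and Tlr7 overlapped between libraries, as did Tlr9 and Tlr1. With nanoparticles the order was Cd14 (531), Tlr2 (151), Tlr13 (33.2), Tlr7 (24.9), Tlr4 (15.3), Tlr1 (10.6), Tlr6 (9.33), Tlr3 (5.93), Tlr8 (4.67) and Tlr9 (0.715). The ranges over the treated libraries of Cd14, Tlr2 and Tlr9 did not overlap those of their neighbours, whereas the ranges overlapped at each step from Tlr13 down to Tlr8. Within each treated library, however, Tlr13 was above Tlr7, Tlr7 above Tlr4 and Tlr4 above Tlr1.

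The make-up of receptor mRNA shifted from Tlr13 to Tlr2. The 9 receptors together held 130, 128 and 132 FPKM in vehicle and 258, 262 and 248 FPKM with nanoparticles. Of that sum Tlr2 made up 19.7%, 22.8% and 21.8% in vehicle and 46.2%, 65.7% and 65.6% with nanoparticles. Tlr13 made up 41.2%, 38.2% and 39.1% in vehicle and 14.4%, 11.7% and 12.9% with nanoparticles. These shares do not depend on the scaling between libraries. They are tied to each other, however, so a rise of Tlr2 lowers the share of every other receptor. In FPKM the mean of Tlr13 was 1.54-fold lower. The share of Tlr2 was thus the largest in every treated library and that of Tlr13 in every vehicle library.

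The other receptors took smaller shares. Tlr8 went from 8.96% ± 0.392 to 1.82% ± 0.615, Tlr4 from 11.1% ± 0.635 to 5.96% ± 1.81 and Tlr9 from 1.94% ± 0.134 to 0.278% ± 0.122. Tlr1 went from 1.86% ± 0.219 to 6.87%, 2.98% and 2.48% in treated libraries 1 to 3, without overlap. The difference of 2.25 percentage points for Tlr1 was 0.871 without nanoparticle library 1. The shares of Tlr3, Tlr6 and Tlr7 overlapped between the groups, although each of these genes rose. For the 6 shares that did not overlap the exact permutation p was 0.1, the smallest possible (adjusted p = 0.15 over 9 shares).

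By place in the cell, the 4 surface receptors summed to 48.3 ± 2.40 FPKM in the vehicle libraries, against 187 ± 15.2 FPKM in the treated ones. Most of that rise was Tlr2, with means of 27.9 and 151 FPKM. Tlr1 (2.42 and 10.6 FPKM) and Tlr6 (3.61 and 9.33 FPKM) added little, and Tlr4 was at 14.4 and 15.3 FPKM. The part of the 4 surface receptors in the whole was 35.1%, 38.6% and 37.8% in vehicle and 66.03%, 76.4% and 76.2% with nanoparticles. For this part the exact permutation p was 0.1, the smallest possible. The 5 endosomal receptors summed to 84.1, 78.3 and 82.2 FPKM in vehicle and to 87.5, 61.8 and 59.0 FPKM with nanoparticles. That sum overlapped between the groups (exact permutation p = 0.4), with treated library 1 above all vehicle libraries and libraries 2 and 3 below them.

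**Figure D3:**
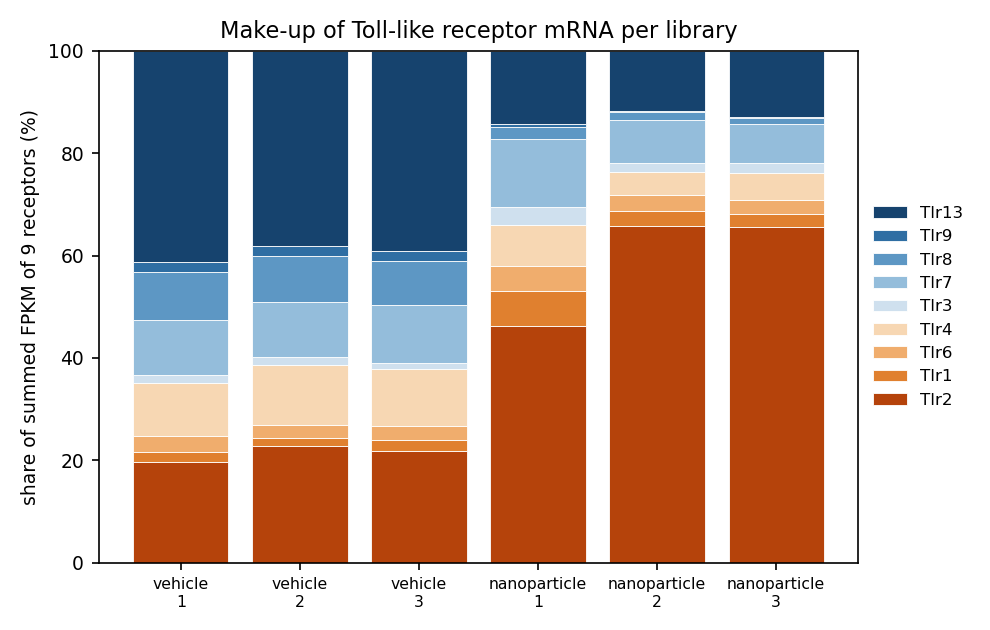
Share of each of 9 Toll-like receptors in their summed FPKM (%), 1 stacked bar per library, surface receptors in orange shades and endosomal receptors in blue. Tlr2 takes 46.2% to 65.7% of the sum in the nanoparticle libraries and 19.7% to 22.8% in the vehicle libraries.

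Nanoparticle library 1 was the highest of the 3 treated libraries in 9 of the 10 genes, all but Tlr2. Among all tested genes it was the highest of the 3 in 42.3% and the lowest in 46.3%. For Tlr1, Tlr3 and Tlr9 it held 2.53, 2.04 and 2.01 times the mean of libraries 2 and 3, and for Tlr2 it held 0.710 times that mean. Without it, 64.8% of all tested genes passed (34.3% higher and 30.5% lower), and 6 of the 10 genes again rose and 3 fell. The log2 changes were then 2.96 for Cd14, 2.55 for Tlr2, 1.22 for Tlr1, 0.92 for Tlr3, 0.89 for Tlr6, 0.48 for Tlr7, -0.69 for Tlr13, -1.195 for Tlr9 and -1.41 for Tlr8. Leaving this library out thus brought the increases down, apart from that of Tlr2, and made each decrease larger.

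**Figure D4:**
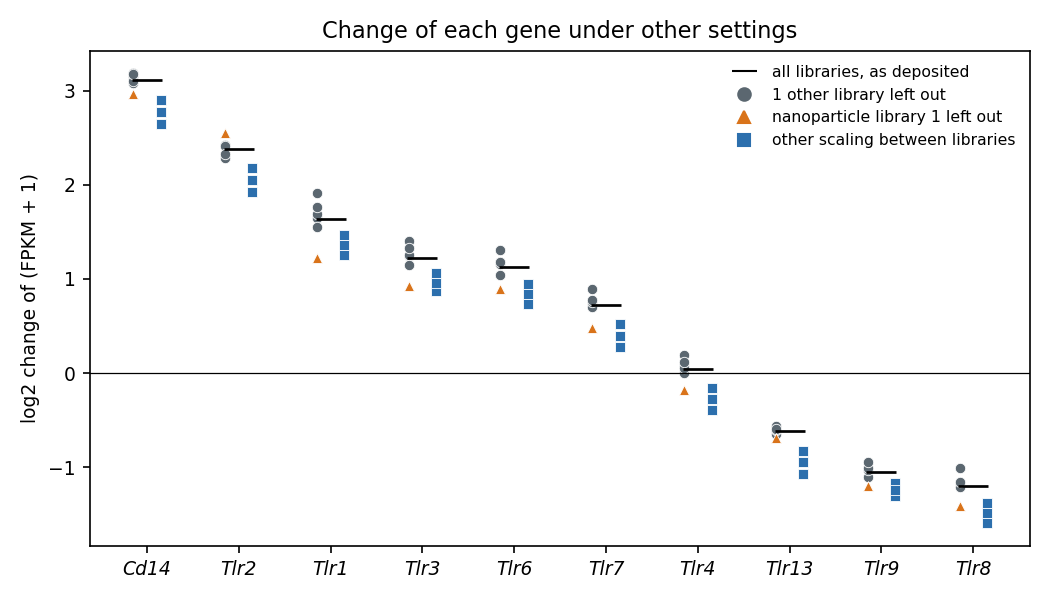
Log2 change of (FPKM + 1) for each gene under other settings: all libraries as deposited (black dash), nanoparticle library 1 left out (orange triangle), 1 other library left out (grey circles) and other scalings between libraries (blue squares). Every gene but Tlr4 stays on the same side of 0 in all settings shown.

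Few of the partners that fold, escort and assist the receptors passed the test, a share near that of all genes. Of 18 tested genes for chaperones, co-receptors and trafficking, 2 rose and 3 fell, with a median log2 change of 0.09, against 17.0% and 16.2% and a median of -0.00103 for all genes tested. Ly96, which encodes MD-2, the partner of TLR4, went up from 5.64 ± 0.642 to 11.97 ± 1.45 FPKM (0.96 on the log2 scale, limma adjusted p = 0.0022). Slc15a3, a peptide and histidine transporter of endolysosomes, rose from 100.4 ± 1.98 to 334 ± 110 FPKM (log2 change 1.68, limma adjusted p = 0.0024). Rab7b, a small GTPase of late endosomes, fell from 41.3 ± 1.77 to 22.6 ± 4.30 FPKM (log2 change -0.86, limma adjusted p = 0.0076). Pld4, an endolysosomal exonuclease that degrades nucleic acids, fell from 41.7 ± 2.64 to 15.7 ± 2.82 FPKM (log2 change -1.36, limma adjusted p = 0.0011).

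The escort that takes nucleic acid receptors to endosomes, Unc93b1, was at 98.4 ± 4.91 FPKM in vehicle libraries, against 136 ± 19.7 FPKM in treated ones, and did not pass (log2 change 0.45, limma adjusted p = 0.0538). Hsp90b1, the folding chaperone of the family, was at 143 ± 1.78 and 107 ± 27.4 FPKM and did not pass either (limma adjusted p = 0.147). Both were chosen here after their values were seen, for their role. Without nanoparticle library 1, 7 of the 18 genes rose and 5 fell (all genes 34.3% and 30.5%). With scaling to equal sums of FPKM, 2 rose and 8 fell (all genes 7.98% and 40.8%). These shares of all genes, with 17.0% and 16.2% for all libraries on the deposited scale, are the background for each list that follows.

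Of 9 tested genes for endosomal processing of receptors and ligands, 4 rose and 0 fell, with a median log2 change of 0.48, against 17.0% and 16.2% of all genes. The counts were 6 and 1 without nanoparticle library 1 (all genes 34.3% and 30.5%) and 1 and 2 with equal sums (all genes 7.98% and 40.8%). Ctsk, which encodes cathepsin K, rose from 25.04 ± 1.07 to 67.8 ± 6.07 FPKM (log2 change 1.40, limma adjusted p = 3.5e-04). Rnaset2a, a lysosomal ribonuclease with a near-identical copy, Rnaset2b, was at 0.160 ± 0.108 and 1.52 ± 0.452 FPKM (limma adjusted p = 0.0034), and its value is uncertain for that reason. Rnaset2a also passed the filter on low values only through the treated libraries.

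Among 23 adaptors and kinases downstream of the receptors 7 rose and 2 fell, against 17.0% and 16.2% of all genes. The median log2 change was 0.11 with all libraries and 0.013 without nanoparticle library 1. Peli1, a ubiquitin ligase of the pathway, rose from 2.72 ± 0.0832 to 11.5 ± 0.951 FPKM (log2 change 1.75, limma adjusted p = 1.1e-04), and the kinase gene Tbk1 rose from 16.7 ± 0.455 to 31.1 ± 4.61 FPKM. Irak1, a kinase recruited by MyD88, fell from 15.6 ± 0.608 to between 10.06 and 12.8 FPKM (log2 change -0.46, limma adjusted p = 0.0256), and Peli2 fell from 3.26 ± 0.0961 to 1.75 ± 0.308 FPKM. Without nanoparticle library 1, 11 rose and 6 fell (all genes 34.3% and 30.5%), and with equal sums 2 rose and 6 fell (all genes 7.98% and 40.8%).

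Of 19 tested negative regulators of the pathway 13 rose and 3 fell, with a median log2 change of 1.71, against 17.0% and 16.2% of all genes, so the share that fell was near that of all genes. Nfkbia, the inhibitor of NF-kappaB, rose from 35.1 ± 0.591 to 336 ± 63.9 FPKM and Usp18, a brake on interferon signalling, from 5.64 ± 0.862 to 177 ± 50.3 FPKM (limma adjusted p = 8.4e-05 and 7.1e-05). Inpp5d, the phosphatase SHIP-1, fell from 24.3 ± 0.645 to 10.4 ± 0.854 FPKM, and Il1rl1, a receptor of the interleukin-1 family, fell from 9.95 ± 0.638 to 0.694 ± 0.561 FPKM. The count was 10 higher and 3 lower with equal sums (all genes 7.98% and 40.8%) and 14 and 3 without nanoparticle library 1 (all genes 34.3% and 30.5%).

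Known target genes of the pathway rose throughout. All 13 listed targets of MyD88 signalling rose, with a median log2 change of 6.201, and all 11 tested targets of TRIF and interferon signalling rose, with a median of 6.36, where 17.0% of all genes rose. Both counts were the same with equal sums (all genes 7.98%) and without nanoparticle library 1 (all genes 34.3%). Il1b reached 2787 ± 95.5 FPKM from 8.10 ± 0.646, Isg15 1182 ± 215 FPKM from 7.25 ± 0.536 and Cxcl10 124 ± 6.06 FPKM from 0.531 ± 0.222. Il6 had 0, 0 and 3 reads in the vehicle libraries and 383, 290.0 and 264 FPKM in the treated ones, and the fitted medians depend in part on the pseudocount for such genes. Il6, Il12b, Ptgs2, Cxcl1, Il23a, Nfkbiz and Cxcl10 were below 1 FPKM in every vehicle library. They passed the filter on low values only through the treated libraries, so for them being tested already required a higher treated level. The listed targets were already known to rise in these libraries when the lists were written, so the counts are a description.

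Of 18 listed transcription factors with a role at Tlr genes, 11 rose and 0 fell, with a median log2 change of 1.29, against 17.0% and 16.2% of all genes. Irf1, an interferon regulatory factor, went from 5.58 ± 0.0736 to 35.4 ± 2.76 FPKM (limma adjusted p = 3.9e-05). Spi1, which encodes PU.1, was at 160.3 ± 1.72 FPKM in vehicle libraries, against 183 ± 66.4 FPKM in treated ones, and did not pass (limma adjusted p = 0.798). It was chosen after its values were seen, because its core motif is shown above. With equal sums 11 rose and 5 fell (all genes 7.98% and 40.8%), and 14 rose and 3 fell without nanoparticle library 1 (all genes 34.3% and 30.5%).

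Of 19 tested genes for other pattern recognition receptors 11 rose and 1 fell, with a median log2 change of 0.92, against 17.0% and 16.2% of all genes. Zbp1, a sensor of Z-form nucleic acid, rose from 4.495 ± 0.370 to 85.4 ± 9.76 FPKM, and Dhx58, a helicase of the RIG-I family, from 3.93 ± 0.456 to 40.9 ± 2.90 FPKM (limma adjusted p = 2.1e-05 and 3.2e-05). The lectin gene Cd209a fell, from 5.69 ± 0.523 FPKM to 0, 0.0764 and 0 FPKM in the treated libraries. Cd209a passed the filter on low values only through the vehicle libraries, and Nod2, among those that rose, only through the treated ones. With equal sums 8 rose and 3 fell (all genes 7.98% and 40.8%), and without nanoparticle library 1 the counts were 13 and 2 (all genes 34.3% and 30.5%).

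Patterns over the 6 libraries were compared by Pearson correlation of log2(FPKM + 1) with 6102 other tested genes of at least 5 FPKM on average. The genes most like Cd14 were Oasl1 (r = 0.9999), Trafd1 (0.9998) and Agtrap (0.9997). Oasl1, with means of 0.406 FPKM in vehicle and 153.9 FPKM in treated libraries, entered the comparison only through the treated ones. For Tlr2 they were Adrm1 (0.9998), Relb (0.9996) and the gene ENSMUSG00000023307 (0.9992), whose name in the table had become a calendar date. Tlr8 was most like Ide, Pygb and Tln1 (0.9993, 0.9990 and 0.9979), and Tlr9 most like Plekhm1, Hcfc1 and Slc38a1 (0.9983, 0.9978 and 0.9959). All 6 libraries share 2 groups, so high values are common: 270 genes had an r of at least 0.99 with Cd14, 137 with Tlr2, 44 with Tlr8 and 46 with Tlr9.

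Markers of other cells that carry these receptors were also read. Plasmacytoid dendritic cells and B cells are known for Tlr7 and Tlr9, and neutrophils and monocytes for Cd14 and Tlr2. Of 10 plasmacytoid markers 3 were tested and 2 rose, Bst2 and Cox6a2, where 17.0% of all genes rose. Among the untested markers, Pacsin1 and Spib were lower with nanoparticles, without overlap between the groups, and Tcf4 was higher without overlap. Mean FPKM in vehicle and treated libraries was 0.663 and 0.120 for Pacsin1, 0.417 and 0.0863 for Spib, and 0.809 and 1.198 for Tcf4. The list summed to 102 to 110 FPKM in vehicle and 773 to 1046 FPKM with nanoparticles, of which the interferon-inducible gene Bst2 made up 96.6 to 105 and 768 to 1038 FPKM, while the defining marker Siglech had at most 3 reads in every library. B cell markers summed to at most 0.394 FPKM in vehicle libraries and 0.404 FPKM in treated ones, the highest being Cd79a.

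Neutrophil markers summed to 35.8 to 40.3 FPKM in vehicle and 55.95 to 128 FPKM with nanoparticles. Of 3 tested genes 2 were higher (17.0% of all genes). S100a8 was the highest of the list at 33.4 to 35.96 and 50.1 to 109 FPKM. Mpo had no more than 3 reads per library and the defining marker Ly6g at most 0.192 FPKM. Among the untested neutrophil markers, Cxcr2 was lower without overlap (means of 0.653 FPKM in vehicle and 0.0530 FPKM in treated libraries). Camp, also untested, was higher without overlap (0.0853 and 1.35 FPKM). Monocyte markers summed to 135 to 179 FPKM in vehicle and 99.9 to 171 FPKM with nanoparticles, with 2 of 4 tested genes higher and 1 lower, and Chil3 made up most of the sum (114 to 153 and 87.1 to 141 FPKM), with Cd177 the lowest. Macrophage markers summed to 1131 to 1284 and 1014 to 1236 FPKM, with 4 of 11 higher and 5 lower, Cd68 being the highest (294 to 304 and 426 to 589 FPKM) and Vcam1 the lowest. Conventional dendritic cell markers summed to 6363 to 6798 FPKM in vehicle and 3656 to 7993 FPKM with nanoparticles. Of 11 tested genes 0 were higher and 4 lower. The untested Xcr1 and Flt3 were higher with nanoparticles, without overlap between the groups. Xcr1 had 8, 16 and 15 reads in vehicle and 161, 61 and 61 in treated libraries. Flt3 had 0, 0 and 1 reads in vehicle and 8, 3 and 7 in treated libraries. Mast cell and basophil markers, from Gata2 (highest) to Ms4a2, reached at most 5.78 FPKM in sum, and T and NK cell markers, from Cd8a to Ncr1, at most 0.203 FPKM. Among all tested genes 17.0% were higher and 16.2% lower. Of the markers called higher, Cox6a2, Csf3r, Vcan and Vcam1 passed the filter on low values only through the treated libraries. Cd209a, a dendritic cell marker called lower, passed it only through the vehicle libraries. The part of the listed cell types in the changes of the receptors was not tested.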

How the data were processed

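RNA of 6 libraries was sequenced, 3 per group, each from 1 µg of total RNA, and the sample titles gave group and replicate number. The authors deposited 2 tables of 23398 genes, one named for read counts, whose 140388 values are identical. No header names the unit. Because the numbers are not whole and scale with gene length, the deposited values were read as FPKM. Multiplied by GENCODE M21 exon length and 1 scale per library, 95.8% to 96.1% of values above 0 came within 0.01 of a whole read, so the authors' FPKM carry whole counted reads. For 74 abundant genes, Cd14 included (1572 bases in place of 1732), the length was found from the values. Per the submitters' processing notes, CASAVA, STAR 2.5, HTSeq, edgeR 3.16.5 and DESeq2 and the builds mm10 and hg19 were used, with no roles given. Strand and the scaling between libraries are not given in the sources used here.

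The 10682 genes that reached 1 FPKM in 3 or more libraries were fitted with limma 3.58.1 in R 4.3.3 on log2(FPKM + 1), with a mean-variance trend, and p-values were adjusted over all of them by the method of Benjamini and Hochberg. The script was tested on simulated data. Shares and ratios were compared with exact two-sided permutation tests in scipy 1.17.1. Read totals of 17423182 to 22114491 set the counting error. The genes, the 8 pathway lists, the 8 marker lists and the named-gene rule were chosen with earlier results of these data known. The rule names, per list, up to 2 genes called higher and 2 called lower with the smallest adjusted p and separate groups, the 3 genes most like the 2 highest and 2 lowest changes, and the highest and lowest gene of each marker list. Some genes that it names are not reported here. Promoter windows are RefSeq's on GRCm38.p6. Alternatives were other scalings, pseudocount, filters, no trend, a replicate block and each library left out. Scaling by recovered read totals, the ratios of Tlr7 to Tlr8 and of Tlr1 to Tlr6 and the motifs were chosen after seeing the data. The sums and parts of surface and endosomal receptors were not among the planned comparisons either.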

Additional observations from a re-analysis of the deposited data

How the results depend on the processing

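Cd14, Tlr2, Tlr8, Tlr9 and Tlr13 kept their direction and their call in each setting that could be fitted. The stricter filter at 5 FPKM removed Tlr3 and Tlr9, so they have no value there. Scaled to equal sums of FPKM, Tlr3 (0.87), Tlr6 (0.73) and Tlr7 (0.27) no longer passed, and Tlr4 was at -0.39. Scaled by upper quartile and by recovered read totals, which moved the median of all genes to -0.18 and -0.29, Tlr7 (0.52 and 0.39) did not pass and Tlr4 was at -0.15 and -0.28. With no filter, where 23398 genes were tested, Tlr7 (0.72) did not pass (limma adjusted p = 0.0913). With 1 library left out, the genes past the threshold ranged from 2141 to 6923, the highest without nanoparticle library 1, and those of the 10 from 7 to 9. In the same fits the change ranged from 1.22 to 1.91 for Tlr1 and from 0.92 to 1.40 for Tlr3, with the call lost without vehicle library 1 or 2 for Tlr1 and without vehicle library 3 for Tlr3 (adjusted p up to 0.0573 and 0.0571). It ranged from -0.18 to 0.19 for Tlr4 and from 0.48 to 0.90 for Tlr7 (adjusted p up to 0.136). With the replicate block Tlr7 (0.72) missed the threshold, no other call among the 10 changed, and 2785 genes passed in all. Same-numbered libraries deviated together with correlations of 0.0654, 0.1133 and -0.0577, so the numbers were not taken to pair the libraries. Of the 128 tested genes in the pathway lists, 70 were higher and 9 lower, against 17.0% and 16.2% of all genes. With equal sums 56 of 127 were higher and 27 lower, against 7.98% and 40.8% of all genes. Depth limits Tlr9 most, with 31 to 61 reads per treated library. Counting error is all that such reads can show, since they carry no molecular identifiers.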

Other observations

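The table also holds Tlr5, Tlr11 and Tlr12, which lie outside the 10 genes. Tlr11, which binds profilin of protozoa, had 64, 66 and 83 reads (0.981, 1.02 and 1.21 FPKM) in vehicle libraries and 5, 23 and 49 reads (0.0935, 0.425 and 0.777 FPKM) in nanoparticle libraries. Here treated library 1 was the lowest, unlike in 9 of the 10 genes described above. Tlr5, the flagellin receptor, had 15, 14 and 5 reads in vehicle and 0 in each treated library. Tlr12 had 8, 8 and 6 reads in vehicle and 0, 4 and 0 with nanoparticles. None of the 3 passed the filter on low values, so they were not tested.

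The ratio of Tlr1 to Tlr6, neighbours that both rose, was 0.629, 0.669 and 0.716 in vehicle and 1.38, 0.935 and 0.908 with nanoparticles, without overlap (exact permutation p = 0.1, the smallest possible). It was looked at after the values were seen.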
